A study of Mus musculus with 9 samples.

Results

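The genes described here are 9 synaptic adhesion genes of the mouse: the neurexins Nrxn2 and Nrxn3, the neuroligins Nlgn1, Nlgn2 and Nlgn3, and the leucine-rich repeat transmembrane genes Lrrtm1, Lrrtm2, Lrrtm3 and Lrrtm4. They were chosen by symbol, though with earlier results of these data known, and are 9 of the 31053 genes in the count tables. Each is described in excitatory and inhibitory neurons, neuron subtypes, astrocytes, oligodendrocytes, oligodendrocyte precursors (OPCs) and microglia.

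Neurexins are presynaptic cell-surface proteins that reach across the synaptic cleft. Neuroligins and LRRTMs are postsynaptic proteins that bind neurexins, and the trans-synaptic pairs organise release sites on one side and receptors on the other. Neuroligins bind excitatory and inhibitory postsynaptic scaffolds, LRRTMs act mainly at excitatory synapses, and glia make some of these proteins too.

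The samples were 9 libraries of single-nucleus RNA-seq, 1 per male wild-type C57BL/6 mouse, made from cortex and hippocampus pooled within the mouse. Young AAV-EGFP mice were 5 months old and aged AAV-EGFP and aged AAV-B3GNT3 mice were 19 months old, with 3 mice in each of the 3 groups. Every mouse, young mice included, carried an adeno-associated virus with the AAV-PHP.V1 capsid, given behind the eye 8 weeks before tissue was taken, and no untreated mouse was measured. In each virus a short CLDN5 promoter drives the cargo in brain endothelial cells, so the aged groups differ in an endothelial transgene: EGFP alone, or EGFP with B3GNT3, a glycosyltransferase of mucin-type O-glycan synthesis. Ageing is the comparison of aged with young AAV-EGFP mice, and the AAV-B3GNT3 comparison is between the aged groups. By the study's methods, aged mice came from the National Institute on Aging colony and young mice from Jackson Laboratories. In comparisons with young mice, age and supplier therefore cannot be told apart. Both use the same aged AAV-EGFP libraries, so their changes are not independent, and the remaining comparison is of aged AAV-B3GNT3 with young AAV-EGFP mice.

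The libraries held 47332047 to 79964605 unique molecular identifiers (UMIs, counted transcripts), and 70340 nuclei were kept, 5783 to 9279 per library. Median UMIs per kept nucleus were 3746, 4877 and 5311 in young, 4643, 4527 and 4102 in aged AAV-EGFP and 3704, 2977 and 4302.5 in aged AAV-B3GNT3 mice. Class names come from marker genes and stand for marker-like clusters: between 3 of 8 and 8 of 8 markers passed for each excitatory cluster, 4 to 6 of 6 for each inhibitory cluster, and all 7 or 8 for the glial classes. The classes held 20463 excitatory neurons, 8096 inhibitory neurons, 8483 astrocytes, 20232 oligodendrocytes, 2420 OPCs and 2205 microglia. The inhibitory class included striatal-like neurons: 1867 direct-type, 1685 indirect-type and 168 of neither type. Direct-type nuclei numbered 77 to 366 and indirect-type nuclei 61 to 297 per library. The tests of a class were not adjusted for its mix of subtypes. Libraries shared 7 to 37 barcodes pairwise. RNA free in the droplets adds UMIs of abundant neuronal genes to glia, and its estimated share of the UMIs was lower in aged AAV-EGFP mice than in the other groups in astrocytes, oligodendrocytes and microglia, with values given beside their results. In OPCs it was 17.4 to 24.7% in young, 10.7 to 17.2% in aged AAV-EGFP and 15.4 to 22.2% in aged AAV-B3GNT3 mice, and the aged groups overlapped. The neuronal genes used for it differed widely in OPCs, from 8.33 to 158% of their level over all barcodes, with Gad1 the highest. They differed in the other glia too, from 6.75 to 60.2% in astrocytes, 8.57 to 79.0% in oligodendrocytes and 13.9 to 91.3% in microglia. The estimates for all glial classes are therefore rough.

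All positions are from GENCODE vM21 on GRCm38. Nrxn2 lies at chr19:6418731-6544169 on the plus strand (125 kb) and Nrxn3 at chr12:88722876-90334935 on the plus strand (1612 kb). Nlgn1 lies at chr3:25426215-26332460 on the minus strand (906 kb), Nlgn2 at chr11:69823122-69837784 on the minus strand (14.7 kb) and Nlgn3 at chrX:101299168-101325963 on the plus strand (26.8 kb). Lrrtm1 lies at chr6:77242689-77257791 on the plus strand (15.1 kb), within the span of the catenin gene Ctnna2, which is on the minus strand. Lrrtm3 lies at chr10:63928472-64090277 on the minus strand (162 kb), within the span of the catenin gene Ctnna3 at chr10:63430098-65003667 on the plus strand. Lrrtm4 lies at chr6:80018877-80810143 on the plus strand (791 kb), and Lrrtm2 spans 6.02 kb within the catenin gene Ctnna1. The strand setting of the counting is not given in the sources used here, so the reads of Lrrtm1, Lrrtm2 and Lrrtm3 and those of their host genes cannot be told apart with certainty. Nrxn2, Nlgn1 and Lrrtm4 also overlap other annotated genes and carry the same limit.

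The promoters of 6 of the 9 members were used from the RefSeq promoter table (GRCm38.p6). Promoters on the chromosome of Lrrtm2 and its host Ctnna1 were left out, here and in the shares over promoters below. The 250 bases before a start are printed for 4 genes: Lrrtm3 and its host Ctnna3, whose levels varied together over neuron subtypes, and Nrxn3 and Lrrtm4, which were called together in glia. The first Nrxn3 start listed lies inside the Nrxn3 span given above, and not at its GENCODE start of chr12:88722876. The sequence printed for Nrxn3 is therefore from within the annotated gene. Sequences run 5′ to 3′ on the gene's own strand, and capitals mark the motifs searched that were found on either strand.
Lrrtm3, minus strand, chr10:64090256-64090505: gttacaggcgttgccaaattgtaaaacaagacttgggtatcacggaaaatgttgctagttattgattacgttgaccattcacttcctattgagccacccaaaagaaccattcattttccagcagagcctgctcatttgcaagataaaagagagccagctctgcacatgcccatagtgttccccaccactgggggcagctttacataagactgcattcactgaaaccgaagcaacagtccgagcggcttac
Ctnna3, first of 3 starts, plus strand, chr10:63429848-63430097: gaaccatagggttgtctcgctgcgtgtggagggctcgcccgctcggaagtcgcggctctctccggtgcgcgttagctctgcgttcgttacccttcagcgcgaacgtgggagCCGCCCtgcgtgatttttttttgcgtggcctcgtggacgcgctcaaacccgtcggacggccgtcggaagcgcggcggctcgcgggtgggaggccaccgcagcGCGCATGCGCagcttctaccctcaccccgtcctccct
Nrxn3, first of 3 starts, plus strand, chr12:88794254-88794503: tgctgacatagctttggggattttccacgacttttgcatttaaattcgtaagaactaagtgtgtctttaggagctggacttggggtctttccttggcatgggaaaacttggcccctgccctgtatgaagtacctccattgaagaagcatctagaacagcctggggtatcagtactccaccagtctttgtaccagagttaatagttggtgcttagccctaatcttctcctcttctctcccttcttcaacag
Lrrtm4, first of 2 starts, plus strand, chr6:80018627-80018876: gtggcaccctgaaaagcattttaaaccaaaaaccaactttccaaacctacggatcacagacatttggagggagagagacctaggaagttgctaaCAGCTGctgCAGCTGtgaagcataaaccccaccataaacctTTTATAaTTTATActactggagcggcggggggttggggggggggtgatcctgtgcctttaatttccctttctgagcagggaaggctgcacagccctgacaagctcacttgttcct
The motifs searched on both strands were TTCAGCACC (part of the REST site), GCGCATGCGC (the NRF1 site), CAGCTG (an E-box), TATAAA (the TATA box), GGGCGG (the GC box) and TGACGTCA (the cAMP response element). The capitals in Ctnna3 are GCGCATGCGC, held by 0.971% of the 32851 promoters used, and the reverse complement of GGGCGG, held by 35.7%. The capitals in Lrrtm4 are 2 copies of CAGCTG, held by 16.3% of promoters, and 2 reverse complements of TATAAA, held by 13.6%. Over the 300-base windows, which run past the start, the Ctnna3 window had 39 CpG pairs and a GC content of 67.0%, and the Lrrtm3 window 10 CpG pairs and 48.7%. The Nrxn3 window, which lies inside the annotated gene, had 2 CpG pairs and 47.3% GC and the Lrrtm4 window 4 and 48.7%, beside a median of 7 CpG pairs and 52.7% over the promoters used.

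Levels over cell types were compared as CPM, a gene's UMIs scaled to a fixed total of the cell type's own UMIs, averaged over the 9 libraries, in 21 cell types (17 neuron subtypes and 4 glial classes). They are descriptions, with no test, and free RNA was not subtracted: with it subtracted, 29 of 54 levels of a member in a class moved by more than the spread between libraries. Nrxn2 was highest in OPCs, at 745 ± 111 CPM (SD, n = 9), where the libraries ran from 556 through a median of 755 to 862 CPM, and every OPC value lay above every value of the next cell type, astrocytes, at a mean of 322 CPM. Below OPCs, the ranges of neighbouring cell types overlapped down to microglia, the lowest at 48.2 CPM. With each nucleus thinned to 1000 UMIs, Nrxn2 had a UMI in 51.6% of OPCs, 26.6% of astrocytes, 13.2% of excitatory neurons and 4.87% of microglia. Without thinning the shares were 91.7% in OPCs (median depth 4134.5 UMIs), 58.5% in astrocytes (2976), 69.2% in excitatory neurons (10588) and 8.44% in microglia (1691).

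Nrxn3 was highest in some interneuron clusters. Its mean was 24998 ± 2480 CPM (SD, n = 9) in a cluster with markers of Lamp5 and Vip interneurons, with a lowest value of 22194, a median of 25380 and a highest of 29466 CPM. No other cell type reached that range. Vip interneurons followed at 14633 CPM and Sst interneurons at 13597 CPM, while Pvalb interneurons had 8000.2 CPM and Lamp5 interneurons 4224.5 CPM, the latter below most other neuron subtypes, and dentate granule neurons were lower at 2563 CPM. Among glia OPCs held 3904 CPM, and microglia, oligodendrocytes and astrocytes were at the bottom of the order with 1607, 1116 and 897 CPM, of which the free RNA estimate given below was 81.1 to 165%.

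The neuroligins differed in where they were highest. Nlgn1, a neuroligin of excitatory synapses, had means of 5761 CPM in direct-type striatal-like neurons and 5755 CPM in OPCs, whose library ranges overlapped, and its lowest mean was 1031 CPM in microglia. Nlgn2, the neuroligin of inhibitory synapses, was highest in OPCs at 71.8 CPM, with libraries from 59.2 to 90.4 CPM, and lowest in oligodendrocytes at 16.9 CPM. Its OPC range overlapped that of the next cell type, the Lamp5 and Vip cluster, at a mean of 44.6 CPM. Nlgn3 was also highest in OPCs, at 86.9 CPM, with a lowest library of 58.6, a median of 91.3 and a highest of 110 CPM, and this range did not overlap that of the next cell type, astrocytes, at 48.4 CPM.

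The LRRTMs had their highest mean levels in neurons, and each time the library range overlapped that of the next cell type. Lrrtm1, a synapse-inducing LRRTM, was highest in layer 5 extratelencephalic neurons at 33.2 CPM, followed by dentate granule neurons at 29.0 CPM. Lrrtm2, which acts at excitatory synapses, was highest in layer 6 corticothalamic neurons at 37.1 CPM. Lrrtm3 had 976 CPM in layer 6 corticothalamic neurons, 899 CPM in direct-type striatal-like neurons and 820 CPM in OPCs, and was lowest in CA3-like neurons at 31.6 CPM. Lrrtm4, known as an organiser of excitatory synapses on dentate granule cells, had its highest mean there, at 9566 ± 1263 CPM (SD, n = 9; lowest 7916, median 9113, highest 11845), and 454 CPM in astrocytes. Layer 5 extratelencephalic neurons followed at 7057 CPM and upper-layer neurons at 6317 CPM. The library ranges of both overlapped that of dentate granule neurons. Whether intronic reads were counted was not determined, and gene span is a scale for comparing genes only if they were. Per kilobase of gene span the highest values were 15.5 CPM per kb for Nrxn3 in the Lamp5 and Vip cluster, 12.1 for Lrrtm4 in dentate granule neurons, 6.36 for Nlgn1 in direct-type striatal-like neurons, 6.16 for Lrrtm2 and 6.03 for Lrrtm3 in layer 6 corticothalamic neurons, 5.94 for Nrxn2, 4.90 for Nlgn2 and 3.24 for Nlgn3 in OPCs, and 2.20 for Lrrtm1 in layer 5 extratelencephalic neurons.

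**Figure D1:**
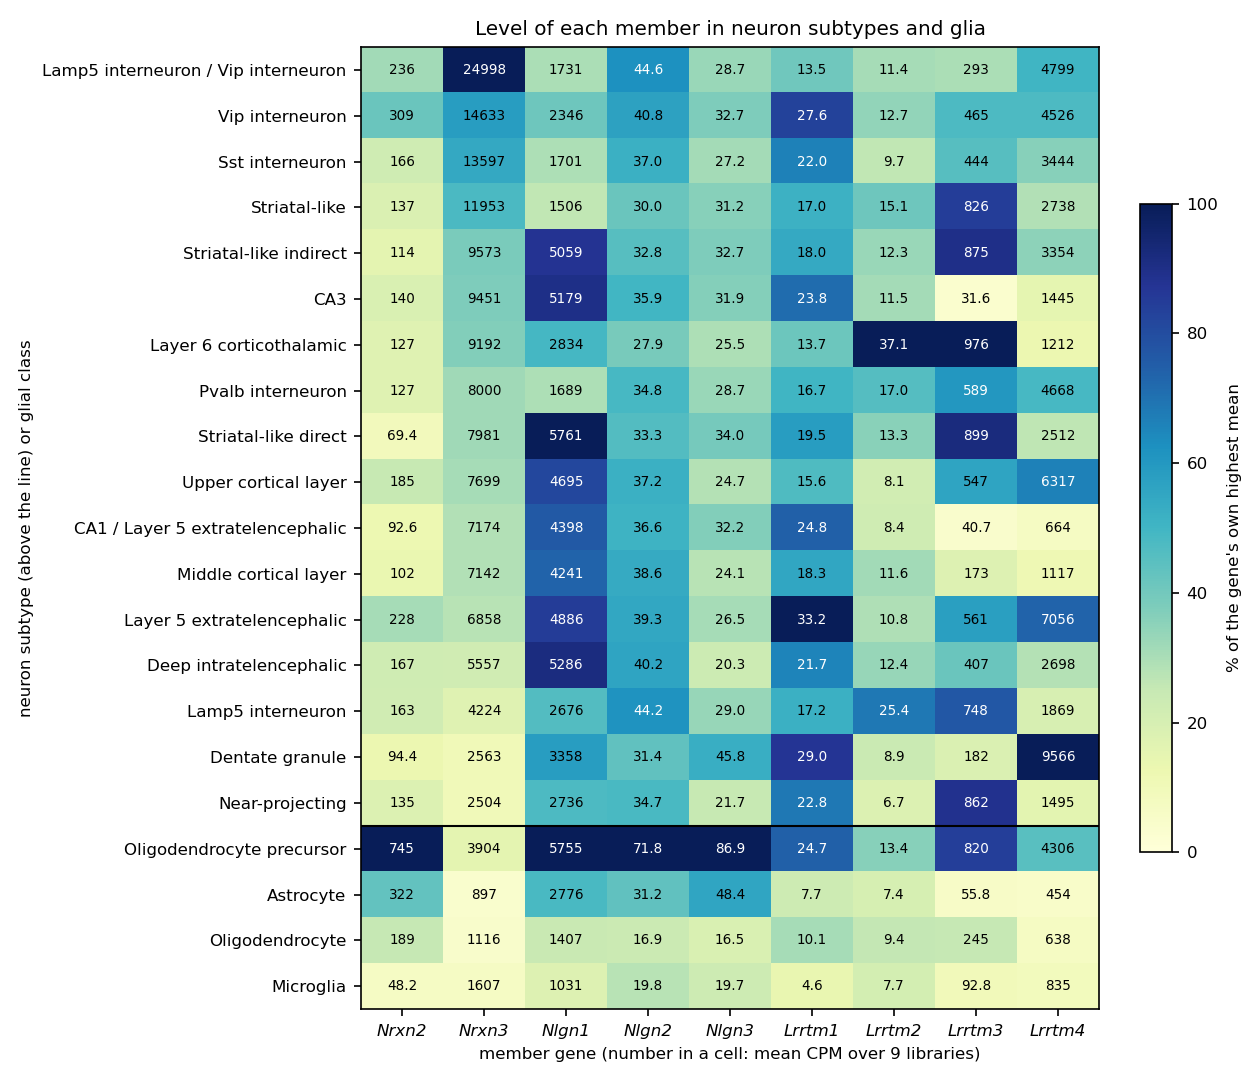
Mean level of each of the 9 genes (columns) in 17 neuron subtypes and 4 glial classes (rows), with the number giving the mean CPM over the 9 libraries and the colour giving that mean as a percent of the gene's own highest cell type. Nrxn2, Nlgn2 and Nlgn3 peak in OPCs at 745, 71.8 and 86.9 CPM, Nrxn3 in the Lamp5 and Vip cluster and Lrrtm4 in dentate granule neurons.

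For each gene the gene most like it in its pattern was found by Pearson's r of log2(mean CPM + 1) over the 21 cell types, among 13508 genes with a mean of at least 50 counts in some class. These were Nlgn1 with Acp1 (r = 0.912), Lrrtm3 with Gm10118 (0.915), Lrrtm1 with Gm15594 (0.870), Nrxn3 with Cacna1b (0.859), Nlgn2 with Mir9-3hg (0.854), Nlgn3 with Scel (0.823), Lrrtm4 with Tiam1 (0.784), Nrxn2 with Elovl6 (0.783) and Lrrtm2 with AC121517.1 (0.627). Over the 17 neuron subtypes alone r was 0.897 for Nlgn1 and 0.934 for Lrrtm3, and 0.0683 for Nlgn2, whose likeness to Mir9-3hg came with the glial classes included. The cell types share libraries and Gm10118 lies within the same host gene as Lrrtm3, and each r is the highest of many.

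Changes between groups were tested in 52 of the 54 pairs of a member and a class, since Lrrtm1 and Lrrtm2 did not pass the filter on low counts in microglia. With ageing 1 pair rose and 11 fell, where 5.43% of all genes tested over the classes rose and 5.64% fell. In the AAV-B3GNT3 comparison 4 pairs rose, against 1.33% of all genes, and 0 fell, against 2.19%. Of that 0 by edgeR, 12 pairs were lower at an unadjusted p under 0.05 and 4 were called lower by DESeq2. In aged AAV-B3GNT3 against young mice 1 pair fell, against 0.617% of all genes, and 0 rose, against 1.14%, with 0 higher at an unadjusted p under 0.05 and 0 by DESeq2. A call is an adjusted p under 0.05 by edgeR's quasi-likelihood test with Benjamini-Hochberg adjustment over all genes tested in the class, and every change is a log2 fold change with its standard error (SE). Groups without overlap are common with 3 mice each: the share of all genes ran from 24.9% (excitatory neurons, aged groups) to 38.4% (oligodendrocytes, ageing) where it is given. No such share was taken in neuron subtypes. Where none is given, a statement on overlap only describes the values.

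**Figure D2:**
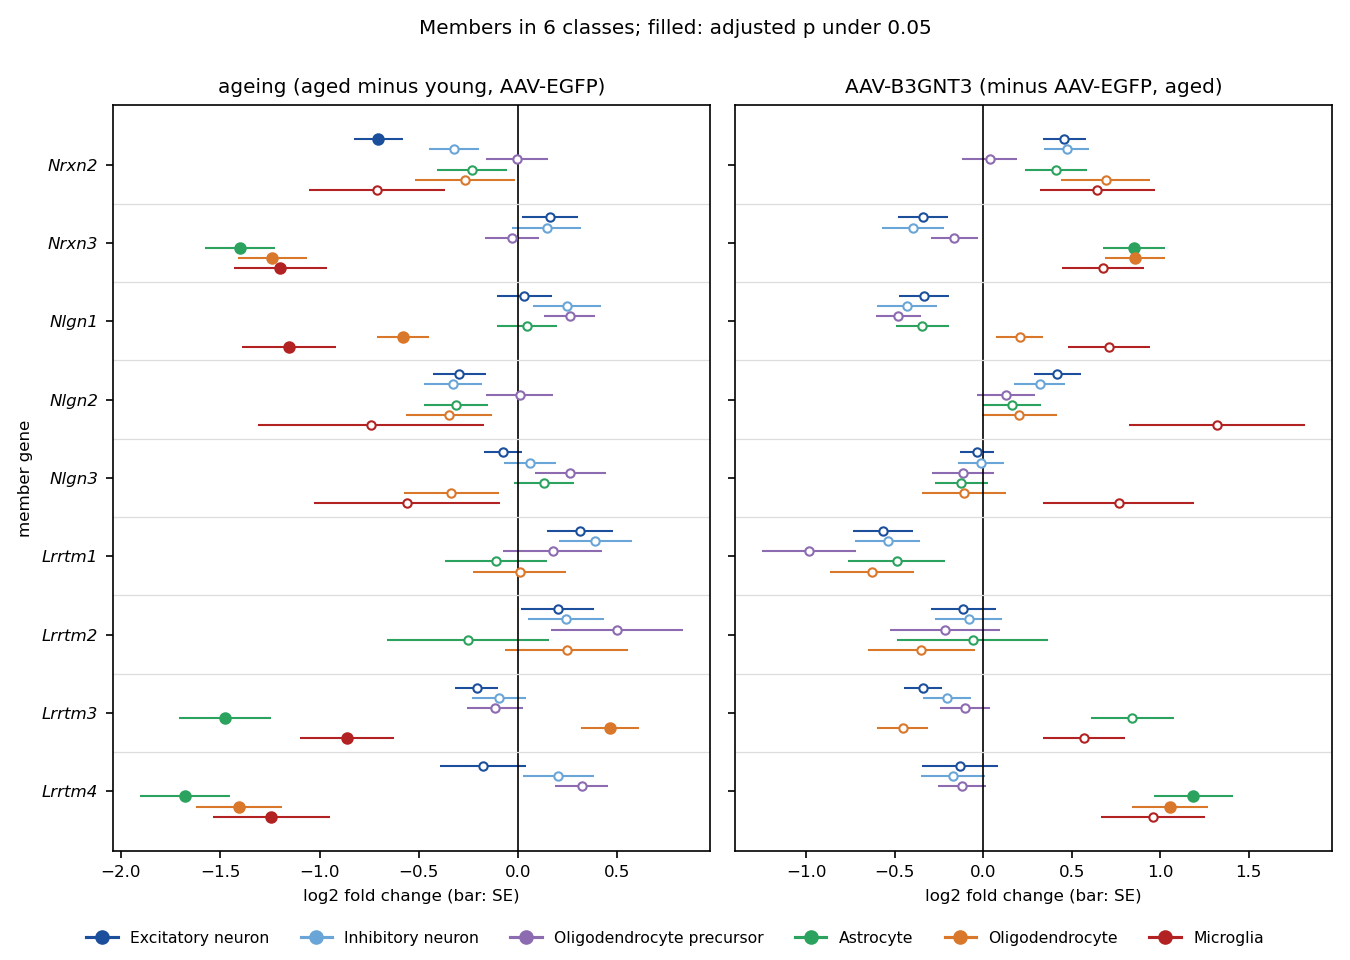
Log2 fold change with SE (horizontal axis) of the 9 genes (vertical axis) in the 6 classes (colours) for ageing and for AAV-B3GNT3 against AAV-EGFP in aged mice, with filled points for an adjusted p under 0.05. Nrxn2 in excitatory neurons is the filled neuronal point, at -0.70 with ageing, and the other filled points lie in astrocytes, oligodendrocytes and microglia.

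At the level of classes, Nrxn2 in excitatory neurons was the call in neurons with ageing. Its level, as CPM scaled by the trimmed mean of M values (TMM), was 188, 173 and 186 in the young AAV-EGFP mice, 108, 119 and 109 in the aged AAV-EGFP mice and 153, 182 and 125 in the aged AAV-B3GNT3 mice. All aged AAV-EGFP values were below all young values and also below all aged AAV-B3GNT3 values, and the aged AAV-B3GNT3 values overlapped the young ones, in a class where the groups did not overlap for 35.7% of genes with ageing, 24.9% between the aged groups and 27.5% in aged AAV-B3GNT3 against young mice. The group means were 182 ± 8.07, 112 ± 6.03 and 154 ± 28.2 CPM (SD, n = 3). Nrxn2 fell with ageing by 0.70 ± 0.12 on the log2 scale (SE, edgeR quasi-likelihood test, adjusted p = 0.0079), in a class where 6.83% of genes fell. The call was kept in each of the 10 other settings and with each of the 9 libraries left out, with values from -0.75 to -0.68 over the latter. Between the aged groups Nrxn2 was at +0.46 ± 0.12 (edgeR adjusted p = 0.064), which did not pass, and in aged AAV-B3GNT3 against young mice at -0.25 ± 0.12 (0.28), with a 95% interval from -0.51 to 0.017. Beside this, the 6 oligodendrocyte-only genes summed in excitatory neurons, a measure of free RNA, ran from 151 to 195 CPM in young, 96.3 to 122 in aged AAV-EGFP and 162 to 197 in aged AAV-B3GNT3 mice, with none of the genes at 0. Free RNA was estimated to make up 18.2, 12.8 and 18.4% of the Nrxn2 level in these groups, and with it subtracted the call was kept.

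Among neuron subtypes, 14 had at least 20 nuclei in every library and gave 124 pairs of a member and a subtype. With ageing 6 pairs fell, where 2.35% of all genes over these subtypes fell, and 0 rose, where 2.14% did (edgeR; 8 were higher at an unadjusted p under 0.05 and 0 by DESeq2). In the AAV-B3GNT3 comparison 1 pair rose (0.248% of all genes) and 0 fell (0.684%; 38 lower at an unadjusted p under 0.05 and 4 by DESeq2). In aged AAV-B3GNT3 against young mice 4 pairs fell (0.536%) and 0 rose (0.569%; 1 at an unadjusted p under 0.05 and 0 by DESeq2). All of these calls were Nrxn2 or Lrrtm3.

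Nrxn2 fell with ageing in 4 cortical excitatory subtypes. In upper-layer neurons the young values were 242, 236 and 263 CPM (TMM-scaled), the aged AAV-EGFP values 137, 132 and 120, and the aged AAV-B3GNT3 values 179, 203 and 158, so that the groups did not overlap and the aged AAV-B3GNT3 mice lay between the others. The ageing change there was -0.93 ± 0.12 (SE, edgeR adjusted p = 0.0010), kept in all 4 other settings and with each library left out. In layer 6 corticothalamic neurons the values were 159, 134 and 151 in young, 100.9, 98.3 and 98.7 in aged AAV-EGFP and 132, 153 and 114 in aged AAV-B3GNT3 mice. There too every aged AAV-EGFP value was below every other value, with a change of -0.58 ± 0.12 (adjusted p = 0.0096, edgeR) that was -0.57 (0.053) without aged AAV-EGFP replicate 2.

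In middle-layer neurons the Nrxn2 values were 137, 102 and 128 CPM in young, 54.6, 87.5 and 86.4 in aged AAV-EGFP and 113, 118 and 91.7 in aged AAV-B3GNT3 mice. Aged AAV-EGFP replicate 1 was the lowest, and its group overlapped neither of the others. The change of -0.65 ± 0.16 (edgeR adjusted p = 0.020) was -0.55 (0.095) without young replicate 1 and -0.61 (0.088) without young replicate 3. In deep intratelencephalic neurons the values were 208, 184 and 219 CPM in young, 91.4, 158 and 144 in aged AAV-EGFP and 175, 184 and 146 in aged AAV-B3GNT3 mice, again with aged AAV-EGFP replicate 1 lowest. The ageing change of -0.62 ± 0.16 (adjusted p = 0.023, edgeR) was -0.60 (0.058) and -0.57 (0.11) without young replicates 1 and 3. With offsets for gene span the middle-layer and deep intratelencephalic calls were at -0.55 (adjusted p = 0.055) and -0.53 (0.057), and with free RNA subtracted the middle-layer value was -0.61 (0.077).

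Over all 14 subtypes the fitted ageing change of Nrxn2 was below 0 in 14, from -0.93 to -0.11 with a median of -0.36, and the AAV-B3GNT3 change was above 0 in 14, from 0.30 to 0.57 with a median of 0.43. The subtypes come from the same 9 mice and both comparisons share the aged AAV-EGFP libraries, so these counts are not independent observations. The share of all genes on 1 side of 0 in every subtype was not counted. Pvalb interneurons passed the test between the aged groups: Nrxn2 had 140, 138 and 125 CPM in young, 105, 101.04 and 94.5 in aged AAV-EGFP and 133, 168 and 143 in aged AAV-B3GNT3 mice. All aged AAV-EGFP values were the lowest of the 9, and Nrxn2 rose by 0.57 ± 0.13 (edgeR adjusted p = 0.037). The call was lost without young replicate 3 (0.58, adjusted p = 0.059), aged AAV-EGFP replicates 2 (0.58, 0.20) or 3 (0.53, 0.087), or aged AAV-B3GNT3 replicates 1 (0.65, 0.10) or 2 (0.47, 0.21), and with free RNA subtracted (0.58, 0.068). In upper-layer neurons aged AAV-B3GNT3 mice were below young mice by -0.46 ± 0.11 (edgeR adjusted p = 0.0499), a call lost without any 1 of 6 libraries (young replicates 1, 2 and 3, aged AAV-EGFP replicate 2, and aged AAV-B3GNT3 replicates 1 and 3), with values of -0.50 to -0.37 and adjusted p from 0.055 to 0.22, and with the replicate number as a block (0.085).

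**Figure D3:**
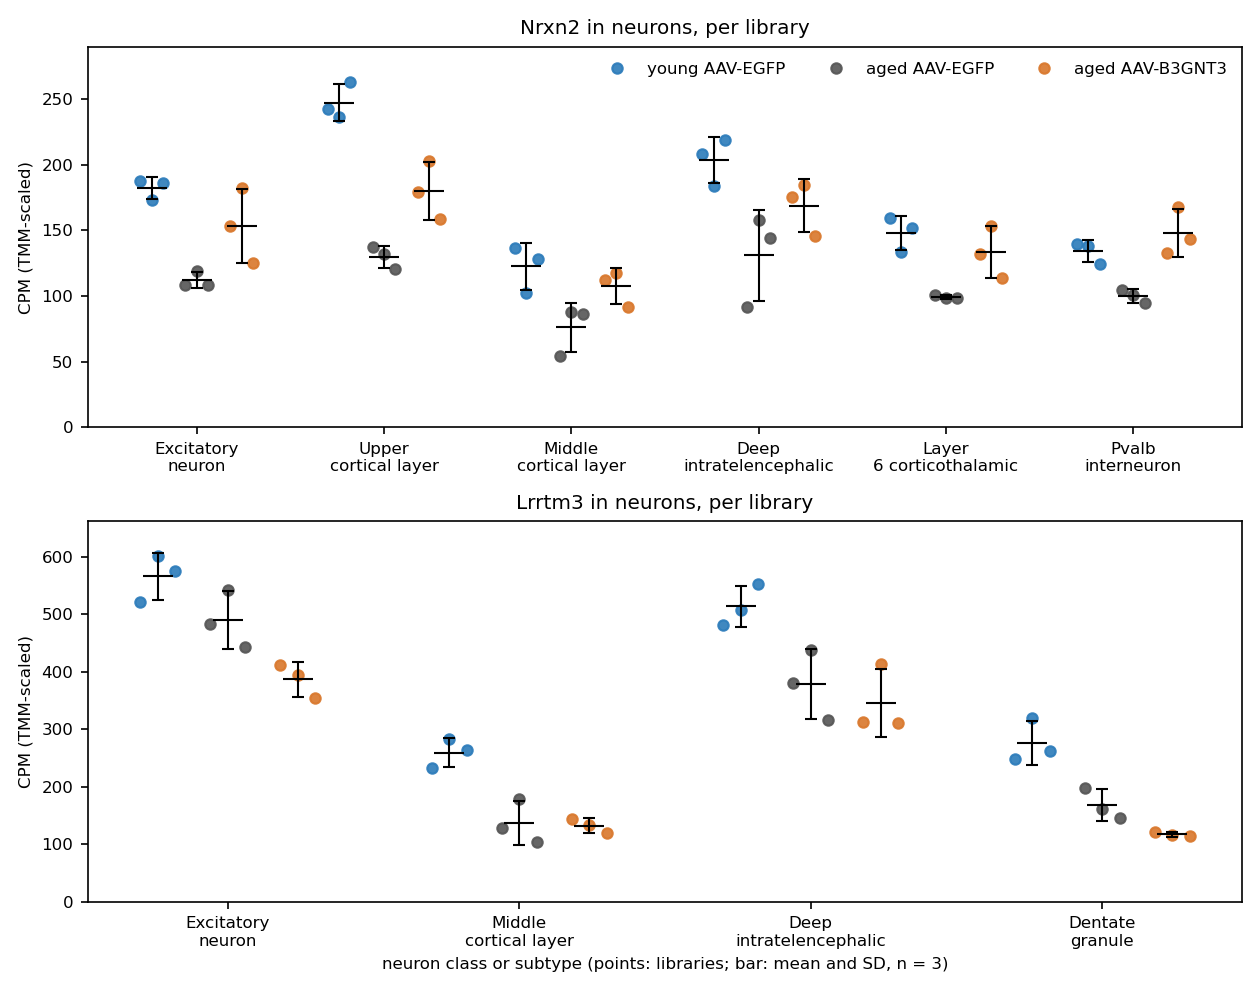
TMM-scaled CPM (vertical axis) in each library (points, coloured by group) by class or subtype (horizontal axis), with the mean and SD of 3 mice, for Nrxn2 in excitatory neurons, 4 of their subtypes and Pvalb interneurons, and for Lrrtm3 in excitatory neurons and 3 subtypes. In excitatory neurons Nrxn2 has its lowest values in aged AAV-EGFP mice (108 to 119 CPM) and Lrrtm3 in aged AAV-B3GNT3 mice (354 to 412 CPM).

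Nrxn3 gave no call by edgeR in neurons. In inhibitory neurons it had 9844, 11550 and 11110 CPM (TMM-scaled) in young, 12160, 13860 and 9867 in aged AAV-EGFP and 8766, 8654 and 9841 in aged AAV-B3GNT3 mice. The first 2 groups overlapped and the aged groups did not, with changes of +0.14 ± 0.17 with ageing (edgeR adjusted p = 0.65) and -0.40 ± 0.18 between the aged groups (0.25). In excitatory neurons the values were +0.16 ± 0.14 (0.46) and -0.34 ± 0.14 (0.17). In the subtypes the ageing values of Nrxn3 ran from 0.05 to 0.32 and the AAV-B3GNT3 values from -0.56 to -0.09, and none passed the edgeR test.

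The neuroligins gave no call by edgeR in neurons or OPCs. Nlgn1 in excitatory neurons was at +0.03 ± 0.14 with ageing (edgeR adjusted p = 0.90) and -0.34 ± 0.14 between the aged groups (0.17). In OPCs, where it is abundant, it had 5502, 5881 and 5936 CPM (TMM-scaled) in young, 6903, 7507 and 6326 in aged AAV-EGFP and 4559, 4698 and 5612 in aged AAV-B3GNT3 mice. The aged AAV-EGFP mice were the highest and did not overlap either group, but neither +0.26 ± 0.13 with ageing (edgeR adjusted p = 0.26) nor -0.48 ± 0.13 between the aged groups (0.072) passed. Nlgn2 in excitatory neurons had 43.5, 30.3 and 36.7 CPM in young, 29.3, 29.3 and 31.3 in aged AAV-EGFP and 40.9, 44.0 and 35.4 in aged AAV-B3GNT3 mice. The aged AAV-EGFP values lay below all aged AAV-B3GNT3 values and overlapped the young ones, at -0.30 ± 0.13 with ageing (0.15) and +0.42 ± 0.13 between the aged groups (0.094), by edgeR. Nlgn3 in excitatory neurons had 24.6 to 27.6 CPM over all 9 libraries. Its aged AAV-EGFP values overlapped either other group, though the young values lay above the aged AAV-B3GNT3 ones, with changes of -0.07 ± 0.10 with ageing (edgeR adjusted p = 0.62) and -0.03 ± 0.10 between the aged groups (0.86), with 95% intervals from -0.28 to 0.13 and from -0.24 to 0.17.

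At the level of classes, Lrrtm3 was the call in neurons between aged AAV-B3GNT3 and young mice. In excitatory neurons its TMM-scaled level was 522, 602 and 575 CPM in young, 483, 543 and 443 in aged AAV-EGFP and 412, 395 and 354 in aged AAV-B3GNT3 mice. The aged AAV-B3GNT3 values were below all others, and the young and aged AAV-EGFP values overlapped. Lrrtm3 was lower in aged AAV-B3GNT3 than in young mice by -0.55 ± 0.11 (SE, edgeR adjusted p = 0.018), in a class where 1.25% of genes were lower in this comparison. The call was kept in all 10 other settings but was lost without young replicates 2 (-0.51, adjusted p = 0.087) or 3 (-0.54, 0.099) or aged AAV-B3GNT3 replicates 1 (-0.59, 0.056) or 3 (-0.49, 0.069). The steps from young to aged AAV-EGFP (-0.21 ± 0.11, edgeR adjusted p = 0.20) and between the aged groups (-0.34 ± 0.11, 0.092) did not pass.

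By subtype, Lrrtm3 in middle-layer neurons had 232, 283 and 263 CPM in young, 127, 179 and 103 in aged AAV-EGFP and 144, 134 and 119 in aged AAV-B3GNT3 mice. Both aged groups lay below all young mice and overlapped each other. Lrrtm3 fell there by 0.92 ± 0.16 on the log2 scale with ageing (edgeR adjusted p = 0.0026) and was lower by -0.97 ± 0.16 in aged AAV-B3GNT3 than in young mice (0.0063), and both calls held in every other setting and with each library left out. In dentate granule neurons, with 44 to 289 nuclei per library, the values were 248, 320 and 262 CPM in young, 198, 161 and 145 in aged AAV-EGFP and 121, 116 and 114 in aged AAV-B3GNT3 mice, and the 3 groups did not overlap. The difference of aged AAV-B3GNT3 from young mice was -1.24 ± 0.16 (edgeR adjusted p = 0.00077), and the call was kept in every other setting, with a value of -1.95 (0.00070) once free RNA was subtracted, and with each library left out.

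The ageing change of Lrrtm3 in dentate granule neurons, -0.70 ± 0.16 (edgeR adjusted p = 0.044), passed the test. The call was lost without young replicates 2 (-0.58, adjusted p = 0.18) or 3 (-0.74, 0.13), aged AAV-EGFP replicates 2 (-0.66, 0.25) or 3 (-0.60, 0.16) or aged AAV-B3GNT3 replicate 1 (-0.69, 0.068), and with free RNA subtracted (-0.995, 0.11) or offsets for gene span (-0.62, 0.0501). In deep intratelencephalic neurons Lrrtm3 had 482, 508 and 552 CPM in young, 381, 439 and 316 in aged AAV-EGFP and 312, 414 and 310 in aged AAV-B3GNT3 mice, with the aged groups overlapping each other below the young values. Its difference of aged AAV-B3GNT3 from young mice, -0.57 ± 0.14 (edgeR adjusted p = 0.045), was lost without young replicates 1, 2 or 3 or aged AAV-B3GNT3 replicates 1 or 3, with values of -0.59 to -0.47 and adjusted p from 0.066 to 0.27, and with free RNA subtracted (-0.58, 0.081).

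Ctnna3, the catenin gene on the other strand around Lrrtm3, had nearly the same pattern over the 17 neuron subtypes, with r = 0.998 of log2(mean CPM + 1), and r = 0.839 over all 21 cell types. For Lrrtm1 and Ctnna2 the values were 0.326 and 0.762, and for Lrrtm2 and Ctnna1 0.631 and 0.126. In neuron subtypes there were on average 1.59 to 2.09 Lrrtm3 UMIs per Ctnna3 UMI, and in oligodendrocytes 0.131. Per library the ratio in excitatory neurons was 3.10, 1.63 and 1.99 in young, 1.42, 1.38 and 1.31 in aged AAV-EGFP and 2.61, 2.67 and 1.53 in aged AAV-B3GNT3 mice. Young replicate 1 had the highest ratio, and it did so in OPCs too, where the ratio was 3.59, 1.74 and 2.10 in young, 1.29, 1.41 and 1.42 in aged AAV-EGFP and 2.58, 2.46 and 1.80 in aged AAV-B3GNT3 mice.

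Ctnna3 itself had 169, 369 and 290 CPM (TMM-scaled) in excitatory neurons of young, 340, 393 and 340 of aged AAV-EGFP and 158, 148 and 231 of aged AAV-B3GNT3 mice. The aged groups did not overlap, and Ctnna3 fell between them by 0.9995 ± 0.24 on the log2 scale (edgeR adjusted p = 0.048), while its ageing change was +0.38 ± 0.24 (0.29). Young replicate 1 and aged AAV-B3GNT3 replicates 1 and 2, with the lowest Ctnna3 values and the highest ratios, also had the lowest median UMIs per kept nucleus (3746, 3704 and 2977). In excitatory neurons these libraries also had the lowest Lrrtm1 and the highest Nlgn2 values. The part of depth in these changes was not tested. In aged AAV-B3GNT3 against young mice, the comparison that called Lrrtm3, Ctnna3 was at -0.62 ± 0.24 in excitatory neurons (edgeR adjusted p = 0.17), -1.20 in dentate granule neurons (0.027), -0.91 in middle-layer neurons (0.036) and -0.57 in deep intratelencephalic neurons (0.17). With ageing it was at -0.27 (0.64), -0.23 (0.53) and +0.19 (0.60) in these subtypes, by edgeR. Which gene's transcripts the changes of Lrrtm3 reads come from was not tested.

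**Figure D4:**
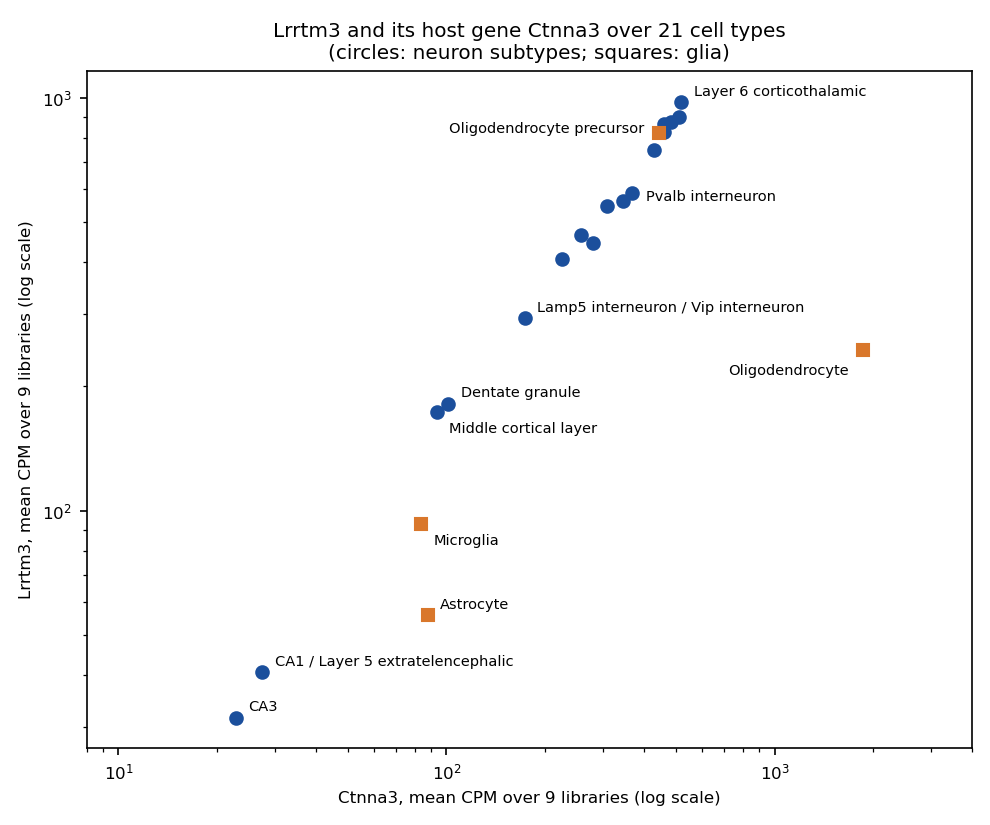
Mean CPM of Lrrtm3 (vertical, log axis) against that of Ctnna3 (horizontal, log axis) over the 9 libraries, with circles for the 17 neuron subtypes and squares for the 4 glial classes. The neuron subtypes lie along 1 line (r = 0.998), and oligodendrocytes lie apart, with 0.131 Lrrtm3 UMIs per Ctnna3 UMI.

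The other LRRTMs gave no call by edgeR in neurons. Between the aged groups excitatory neurons gave 0 calls of a member by edgeR, with 6 at an unadjusted p under 0.05, and 3 by DESeq2 (Nrxn2 higher, Lrrtm1 and Lrrtm3 lower), where 2.63% of genes were called by edgeR. Lrrtm1 in excitatory neurons had 15.4, 23.6 and 20.1 CPM (TMM-scaled) in young, 26.2, 26.3 and 20.9 in aged AAV-EGFP and 15.1, 14.8 and 19.5 in aged AAV-B3GNT3 mice. The aged groups did not overlap, and the change between them was -0.57 ± 0.17 (edgeR adjusted p = 0.080), beside +0.31 ± 0.17 with ageing (0.22). In OPCs Lrrtm1 had 31.8, 26.4 and 26.3 CPM in young, 32.8, 31.2 and 31.1 in aged AAV-EGFP and 20.2, 9.28 and 18.5 in aged AAV-B3GNT3 mice, with the last group below all others. Its change between the aged groups was -0.98 ± 0.27 (0.077 by edgeR) and in the subtypes ran from -0.85 to -0.21. Lrrtm2 in excitatory neurons, at 11.0 to 19.5 CPM, was at +0.20 ± 0.18 with ageing (edgeR adjusted p = 0.48) and -0.11 ± 0.18 between the aged groups (0.74), with overlapping groups. Lrrtm4 there had 3458, 5185 and 4334 CPM in young, 4390, 4182 and 2902 in aged AAV-EGFP and 2619, 3383 and 4469 in aged AAV-B3GNT3 mice, which overlapped, at -0.18 ± 0.22 (0.60) and -0.13 ± 0.22 (0.75).

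Excitatory and inhibitory neurons were also compared for the size of each change, with the mouse as a block. No member passed the test of that difference: 0 were called by edgeR in each comparison, with 2, 0 and 3 at an unadjusted p under 0.05 for ageing, AAV-B3GNT3 and aged AAV-B3GNT3 against young, and smallest adjusted p of 0.28, 0.97 and 0.49. Over all genes 0.0422, 0 and 0% were called. Nrxn2, called in excitatory neurons with ageing, was at -0.32 ± 0.13 in inhibitory neurons (edgeR adjusted p = 0.14). Inhibitory neurons gave 0 calls of a member by edgeR with ageing (2 at an unadjusted p under 0.05, 0 by DESeq2), 0 between the aged groups (5 and 1) and 0 against young (1 and 0), where 3.92, 0.641 and 0.711% of all genes were called. OPCs gave 0 by edgeR with ageing (1 and 0), 0 between the aged groups (2 and 1) and 0 against young (1 and 0), where 3.89, 1.02 and 0.29% were.

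In astrocytes, which take up and release transmitter around synapses, 3 members fell with ageing, where 6.62% of genes in the class fell. Nrxn3 had 1265, 1379 and 1307 CPM (TMM-scaled) in young, 488, 552 and 456 in aged AAV-EGFP and 663, 1131 and 904 in aged AAV-B3GNT3 mice. The 3 groups did not overlap, where 29.7% of genes had no overlap with ageing, and Nrxn3 fell with ageing by 1.40 ± 0.18 on the log2 scale (edgeR adjusted p = 0.00049). Lrrtm4 had 598, 772 and 662 CPM in young, 244, 249.2 and 144 in aged AAV-EGFP and 337, 582 and 529 in aged AAV-B3GNT3 mice. Its aged AAV-EGFP values were the lowest, and it fell by 1.68 ± 0.23 (edgeR adjusted p = 0.00070). Lrrtm3 had 86.0, 91.6 and 75.3 CPM in young, 33.2, 32.6 and 25.9 in aged AAV-EGFP and 36.7, 76.5 and 49.3 in aged AAV-B3GNT3 mice, and fell by 1.47 ± 0.23 (0.0014 by edgeR), with the aged AAV-EGFP values again below all others. These calls were kept with each library left out, but with no doublets removed the changes were -0.62 (adjusted p = 0.058) for Nrxn3, -0.58 (0.088) for Lrrtm3 and -0.78 (0.090) for Lrrtm4, and with free RNA subtracted 0 UMIs of any of the 3 genes were left in the aged AAV-EGFP libraries, so that setting gave no usable test of them. With offsets for gene span the calls were kept but smaller, at -0.73 for Nrxn3, -1.23 for Lrrtm3 and -1.14 for Lrrtm4.

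In the AAV-B3GNT3 comparison 2 members rose in astrocytes, where 1.61% of genes rose. Nrxn3 rose by 0.85 ± 0.17 (edgeR adjusted p = 0.020) and Lrrtm4 by 1.19 ± 0.23 (0.017), with no overlap of the aged groups. Without aged AAV-B3GNT3 replicate 2 these were 0.65 (adjusted p = 0.11) and 1.03 (0.089), and without aged AAV-EGFP replicate 2 Nrxn3 was at 0.93 (0.056). With no doublets removed both calls were lost, at 0.15 (adjusted p = 0.69) for Nrxn3 and 0.49 (0.35) for Lrrtm4. Nlgn1, abundant in astrocytes at 2841, 3148 and 2893 CPM in young and 2844, 3445 and 2873 in aged AAV-EGFP mice, overlapped between these groups and had an ageing value of +0.05 ± 0.15 (edgeR adjusted p = 0.88). Nrxn2 was at -0.23 ± 0.17 (0.42).

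In oligodendrocytes 3 members fell with ageing, where 10.6% of genes fell, and 1 rose, where 11.2% rose. Nrxn3 had 1548, 1622 and 1417 CPM in young, 643, 790 and 513 in aged AAV-EGFP and 984, 1412 and 1129 in aged AAV-B3GNT3 mice, with no overlap between the groups (38.4% of genes had none with ageing), and fell by 1.24 ± 0.17 (edgeR adjusted p = 0.0014). Lrrtm4 had 784, 998 and 878 CPM in young, 374, 385 and 245 in aged AAV-EGFP and 475, 863 and 746 in aged AAV-B3GNT3 mice, and fell by 1.41 ± 0.22 (0.0016 by edgeR). Its young and aged AAV-B3GNT3 values overlapped and the aged AAV-EGFP values were the lowest. Both calls were kept with each library left out and in each other setting except free RNA subtraction, which left 0 UMIs of either gene in the aged AAV-EGFP libraries and so gave no usable test. With offsets for gene span the changes were smaller, at -0.43 (edgeR adjusted p = 0.030) for Nrxn3 and -0.75 (0.0075) for Lrrtm4.

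Nlgn1 in oligodendrocytes had 1660, 1829 and 1725 CPM in young, 1098, 1314 and 1078 in aged AAV-EGFP and 1163, 1416 and 1443 in aged AAV-B3GNT3 mice. The aged groups overlapped below the young values, and Nlgn1 fell with ageing by 0.58 ± 0.13 on the log2 scale (edgeR adjusted p = 0.0086), a direction that turned to +0.13 (0.56) with offsets for gene span and was -0.80 (0.0082) with free RNA subtracted. Lrrtm3 went the other way, with 201, 248 and 207 CPM in young, 254, 334 and 316 in aged AAV-EGFP and 188, 232 and 240 in aged AAV-B3GNT3 mice, all aged AAV-EGFP values being above the others. It rose with ageing by 0.46 ± 0.14 (edgeR adjusted p = 0.036) and was lost without young replicates 1 (0.40, adjusted p = 0.11) or 3 (0.42, 0.11) or aged AAV-EGFP replicates 2 (0.38, 0.13) or 3 (0.43, 0.11). Its host Ctnna3, abundant in these cells at 1639, 1727 and 1494 CPM in young and 1941, 2343 and 2160 in aged AAV-EGFP mice, rose by 0.41 ± 0.13 (edgeR adjusted p = 0.036).

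Nrxn3 rose in oligodendrocytes of aged AAV-B3GNT3 against aged AAV-EGFP mice by 0.86 ± 0.17 (edgeR adjusted p = 0.011) and Lrrtm4 by 1.05 ± 0.22 (0.012), where 4.28% of genes rose. Neither gene's aged groups overlapped. Without aged AAV-B3GNT3 replicate 2, the values were 0.73 (adjusted p = 0.0504) for Nrxn3 and 0.90 (0.055) for Lrrtm4, and with offsets for gene span Nrxn3 was at 0.39 (0.075). With no doublets removed Nrxn3 was at 0.62 (adjusted p = 0.092) and Lrrtm4 passed at 0.95 (0.036). Nlgn1 was at +0.20 ± 0.13 (0.33) and Lrrtm3 at -0.46 ± 0.14 (0.060), by edgeR.

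In microglia 4 members fell with ageing by edgeR and 2 by DESeq2 (Nrxn3 and Nlgn1), where 5.32% of genes fell by edgeR. Nrxn3 had 2806, 2489 and 1890 CPM in young, 1412, 1158 and 577 in aged AAV-EGFP and 1578, 1654 and 1785 in aged AAV-B3GNT3 mice, and fell by 1.20 ± 0.23 (edgeR adjusted p = 0.0063). Nlgn1 had 1488, 1641 and 1372 CPM in young, 647, 993 and 390 in aged AAV-EGFP and 936, 1151 and 1226 in aged AAV-B3GNT3 mice, and fell by 1.15 ± 0.23 (0.0080 by edgeR). For both genes the young values were the highest and the aged AAV-EGFP values stayed below all young ones, in a class where 25.4% of genes had no overlap with ageing. Lrrtm4 fell by 1.24 ± 0.29 (edgeR adjusted p = 0.014), from 1013, 1583 and 956 CPM in young to 760, 488 and 264 in aged AAV-EGFP mice, and without young replicate 2 it was at -0.99 (0.085). Lrrtm3 fell by 0.86 ± 0.24 (edgeR adjusted p = 0.032), and without young replicates 1 or 2 or aged AAV-EGFP replicates 1, 2 or 3 it was at -0.95 to -0.65 with adjusted p from 0.052 to 0.16. With offsets for gene span none of the 4 passed, at -0.25 (0.46) for Nrxn3, -0.38 (0.25) for Nlgn1, -0.52 (0.15) for Lrrtm4 and -0.61 (0.13) for Lrrtm3. With no doublets removed Nlgn1 was kept, and Nrxn3 was at -0.61 (adjusted p = 0.14), Lrrtm4 at -0.69 (0.12) and Lrrtm3 at -0.34 (0.44). Free RNA subtraction left 0 UMIs of all 4 genes in aged AAV-EGFP microglia and gave no usable test. Between the aged groups 0 members were called in microglia by edgeR (5 at an unadjusted p under 0.05, 0 by DESeq2), where 1.04% of genes were. Against young mice, aged AAV-B3GNT3 mice gave 0 calls of a member by edgeR in astrocytes (4 at an unadjusted p under 0.05, 0 by DESeq2, against 2.71% of genes) and 0 in oligodendrocytes (3 and 0, against 1.66%), with Nrxn3 at -0.55 ± 0.17 (adjusted p = 0.10) in astrocytes and -0.38 ± 0.17 (0.29) in oligodendrocytes.

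Free RNA moved with these glial results. Its estimated share of the UMIs, from 10 neuron-only genes, was 17.7 to 19.98% in astrocytes of young, 8.68 to 12.3% of aged AAV-EGFP and 14.4 to 19.2% of aged AAV-B3GNT3 mice. In oligodendrocytes it was 21.3 to 26.5, 12.3 to 17.1 and 20.2 to 27.4%, and in microglia 24.1 to 33.4, 13.02 to 23.3 and 25.7 to 33.1%. The neuron-only genes, none of them at 0, summed to 1348 to 1451 CPM in astrocytes of young, 626 to 999 of aged AAV-EGFP and 963 to 1243 of aged AAV-B3GNT3 mice. In oligodendrocytes they summed to 1669 to 1926, 883 to 1384 and 1348 to 1768 CPM, and in microglia to 1884 to 2426, 938 to 1889 and 1802 to 2139 CPM. The 10 genes' own ageing changes had a median of -0.72 in astrocytes (5 fell and 1 rose), -0.56 in oligodendrocytes (4 fell and 1 rose) and -0.50 in microglia (all 3 called genes fell).

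The amount of Nrxn3 and Lrrtm4 that free RNA would give was close to or above what was measured. For Nrxn3 it was 91.5, 152 and 95.1% of the astrocyte level in young, aged AAV-EGFP and aged AAV-B3GNT3 mice, 99.1, 165 and 103% of the oligodendrocyte level and 81.1, 135 and 100% of the microglial level. For Lrrtm4 the shares were 96.1, 167 and 98.9% in astrocytes, 92.1, 149 and 97.4% in oligodendrocytes and 88.2, 133 and 95.8% in microglia. A share over 100% is more than was counted, so the estimate is not an exact measure of free RNA. Whether these glia held Nrxn3 and Lrrtm4 transcripts of their own was not tested.

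The share from free RNA varied among the other members. Nlgn1 in oligodendrocytes had 51.6, 51.0 and 52.7% of its level from the estimated free RNA in the 3 groups, and in astrocytes 24.1, 13.8 and 20.6%. Lrrtm3 in oligodendrocytes had 56.6, 24.8 and 40.4%, and in astrocytes 117, 174 and 116%. Nrxn2 in astrocytes had 11.5, 5.398 and 8.74%, and in OPCs 5.30, 2.58 and 4.91%. Among OPCs the highest share of any member was 31.2%, for Nrxn3 in young mice. In microglia Nlgn1 had 76.5, 117 and 88.2%, Nrxn2 104, 74.0 and 109%, and Lrrtm3 128, 144 and 120%, while Lrrtm1 had up to 177%.

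**Figure D5:**
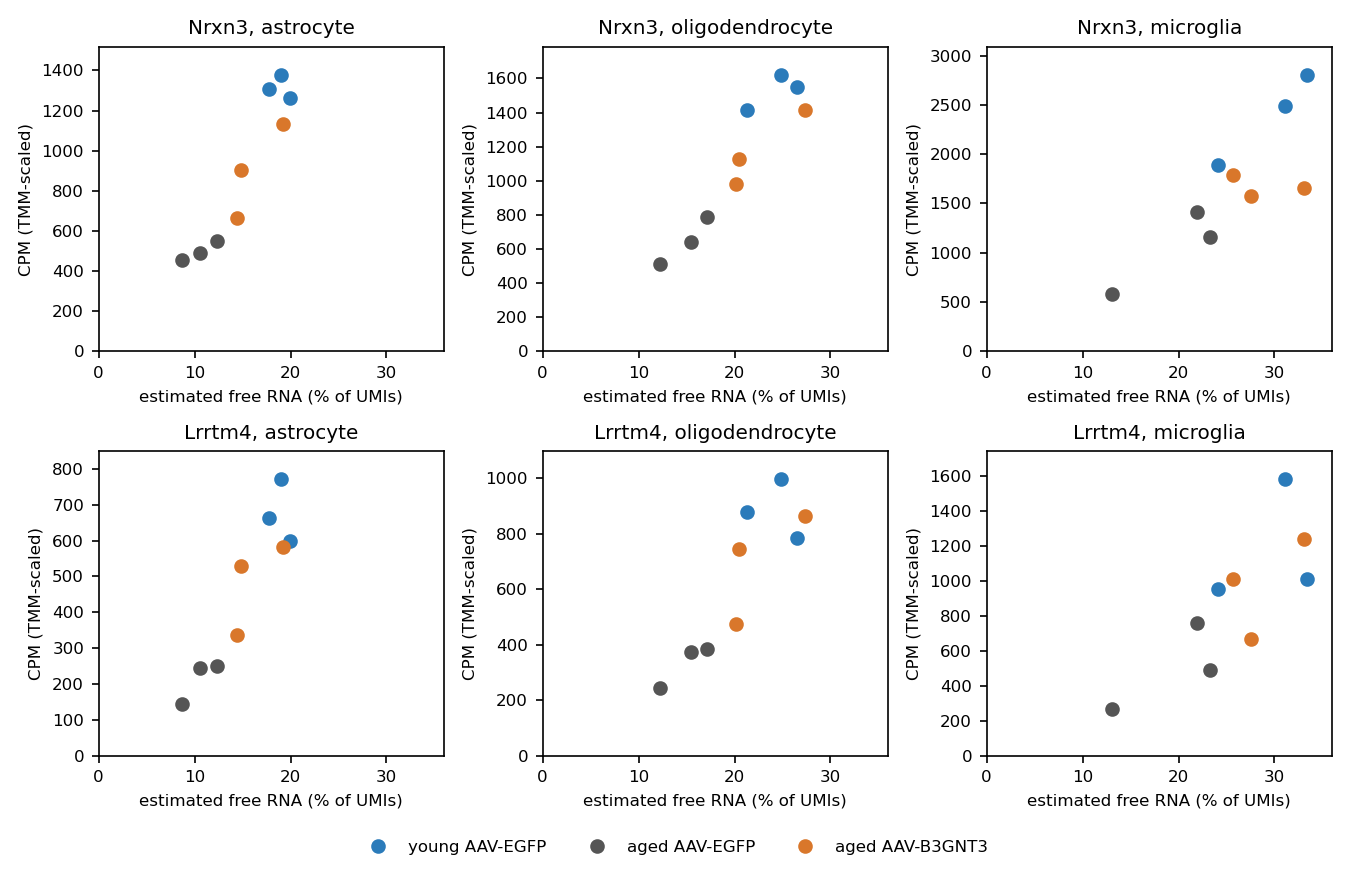
TMM-scaled CPM of Nrxn3 and Lrrtm4 (vertical axis) in each of the 9 libraries against the estimated percent of UMIs from free RNA (horizontal axis) in astrocytes, oligodendrocytes and microglia, with colours for the groups. In astrocytes the aged AAV-EGFP libraries hold the lowest free RNA (8.68 to 12.3%) and the lowest levels of both genes.

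Gene span moved with the glial results as well. Among genes over 300 kb, as Nrxn3, Nlgn1 and Lrrtm4 are, the median ageing change was -0.64 in oligodendrocytes (48.3% fell), -0.77 in microglia (40.6% fell) and -0.38 in astrocytes (36.4% fell). The AAV-B3GNT3 medians were 0.38, 0.36 and 0.08, with 30.3% of these genes higher in oligodendrocytes and 12.6% in astrocytes. In excitatory neurons they were -0.0020 with ageing and -0.20 between the aged groups. Beyond the alternatives given, the part of free RNA and of gene span in the glial calls was not tested.

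Excitatory neurons and oligodendrocytes differed in their changes, with the mouse as a block. For ageing 4 of 9 members were called, where 10.3% of all genes were: the oligodendrocyte minus the excitatory change was -1.41 ± 0.18 for Nrxn3 (edgeR adjusted p = 0.00011), -1.24 ± 0.16 for Lrrtm4 (0.00011), -0.61 ± 0.14 for Nlgn1 (0.0096) and +0.68 ± 0.16 for Lrrtm3 (0.012). Between the aged groups 3 were called, where 5.86% of all genes were: +1.18 ± 0.18 for Nrxn3 (edgeR adjusted p = 0.00085), +1.16 ± 0.16 for Lrrtm4 (0.00049) and +0.51 ± 0.14 for Nlgn1 (0.040), the last turning to -0.11 with offsets for gene span, as its ageing value did to +0.066. With free RNA subtracted fewer of the ageing differences were called, and the Nlgn1 call between the aged groups was lost. That setting gave no usable test of Nrxn3 and Lrrtm4. In aged AAV-B3GNT3 against young mice 0 were called by edgeR, where 0.573% of all genes were, with 3 at an unadjusted p under 0.05 and a smallest adjusted p of 0.18.

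Of the wider pathway, 83 genes in 5 lists were counted by class. Of 16 partners of neurexins and neuroligins, 2 fell with ageing in excitatory neurons, the cerebellin Cbln2 and the neuroligin-binding Mdga1, 3 of 12 tested fell in astrocytes, 5 of 13 in oligodendrocytes (list median -0.76) and 6 of 9 in microglia (-1.09), and all of these calls were decreases. Over all genes, the shares that fell were 1.90% in OPCs, 5.32% in microglia, 6.62% in astrocytes, 6.83% in excitatory neurons and 10.6% in oligodendrocytes. The named genes of this list were Grid1, a delta glutamate receptor that binds cerebellins, at -1.70 ± 0.31 (edgeR adjusted p = 0.0048), and the calsyntenin Clstn2, at -1.56 ± 0.29 (0.0051), in microglia. Of 17 postsynaptic scaffolds, 5 fell with ageing in excitatory neurons (Dlg4, Dlgap3, Dlgap4, Homer1 and Shank2), 3 in OPCs, 7 in astrocytes, 9 in oligodendrocytes (-0.69) and 7 of 16 in microglia, with no call in the other direction among them. Of 12 presynaptic scaffolds, 2 fell in excitatory neurons (Apba1 and Bsn), 1 of 11 in OPCs (Apba1), 4 in astrocytes, 5 in oligodendrocytes and 5 of 9 in microglia, and 1 rose in inhibitory neurons (Lin7b), where 2.29% of genes rose.

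Of 30 other synaptic adhesion genes, 2 rose and 2 fell with ageing in excitatory neurons, 6 fell in OPCs, 8 in astrocytes and 9 of 21 in microglia, and in oligodendrocytes 2 rose and 9 fell (-0.36). The counts in excitatory neurons and the 2 increases in oligodendrocytes were near or below the shares over all genes, of which 7.44% rose in the former and 11.2% in the latter. Of 8 genes that splice or cleave neurexins and neuroligins, 3 fell in oligodendrocytes, 2 in astrocytes and 1 each in OPCs and microglia, with Khdrbs2 and Khdrbs3, splicing factors for neurexin transcripts, at -1.29 (edgeR adjusted p = 0.0016) and -1.02 (0.0055) in oligodendrocytes. The named oligodendrocyte genes of the other lists were the teneurin Tenm3 at -1.57 (0.0020), the netrin-G gene Ntng1 at -1.34 (0.012), the scaffolds Shank2 at -1.61 (0.0034) and Dlgap2 at -1.51 (0.0024), and the active zone gene Rims1 at -1.21 (0.0014) and Apba2 at -1.19 (0.0060). The neuron-only genes and the long genes of these glia moved the same way, as given above.

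Between the aged AAV groups, oligodendrocytes had the most calls among pathway genes, and also the highest share called over all genes (4.28% rose and 6.29% fell). There 4 partners, 4 other adhesion genes, 6 postsynaptic scaffolds and 2 presynaptic scaffolds rose and 1 other adhesion gene fell. Of the 10 neuron-only genes, 2 rose and 1 fell in this comparison (median 0.14), and the free RNA share was 12.3 to 17.1% in aged AAV-EGFP and 20.2 to 27.4% in aged AAV-B3GNT3 mice. Named were the partners Clstn2 at +1.01 (edgeR adjusted p = 0.026) and Nxph1, a neurexophilin that binds neurexins, at +0.79 (0.042), the adhesion genes Tenm3 at +0.99 (0.030) and Flrt2 at +0.84 (0.017), and Shank2 at +1.35 (0.016) and Shank3 at +1.29 (0.0073). Apba2 and Rims1 were at +0.84 (0.048) and +0.73 (0.016). In excitatory neurons the single call of the 5 lists was an adhesion gene that fell (Slitrk1), where 1.65% of genes fell. In microglia the adhesion gene Ptprd rose, where 0.384% of genes rose, and in astrocytes 1 partner, 1 other adhesion gene, 3 postsynaptic scaffolds and 1 presynaptic scaffold rose and 2 other adhesion genes fell, beside 1.61% and 2.58% of genes.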

How the data were processed

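The authors deposited raw UMI counts per gene and nucleus, as whole numbers, for 9 libraries made with the 10x Genomics 3′ kit from FACS-sorted nuclei. Reads were aligned to GRCm38 with Cell Ranger, version 4.0.0 in the study's methods and 7.2.0 in the matrix headers, and whether intronic reads were counted was not determined. No removal of free RNA or doublets had been applied to these counts.

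Of 77823 barcodes, 74895 had 200 to 5000 genes and no more than 10% mitochondrial UMIs. Simulated-doublet scores then removed a preset 0.8% per 1000 barcodes, leaving 70340. Counts were clustered (2000 variable genes without the 9 members, 15 principal components, 20 neighbours, Leiden resolution 0.3) with leidenalg 0.10.2 in Python 3.11.15. A class needed 3 markers, each at least 2-fold over the median cluster and in at least 10% of nuclei. The 6 classes held 61899 nuclei and 306800 to 35529623 UMIs per library and class.

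Counts were summed per library and class or subtype and tested with edgeR 4.0.16 in R 4.3.3 (filterByExpr with a minimum count of 10, TMM, glmQLFit and glmQLFTest, two-sided, all 9 libraries in 1 fit, no block, Benjamini-Hochberg over all genes of the class, threshold 0.05). The SE is the absolute log2 fold change divided by the square root of F, and 95% intervals use the t distribution on the test's degrees of freedom. Differences of a change between classes were tested as an interaction with the mouse as a block. Replicates are separate mice. Group-level TMM-scaled CPM and cell-type CPM, which uses the cell type's own UMI total without TMM, are different scales. On simulated counts, with 200 of 16702 genes changed by 1 on the log2 scale, the excitatory neuron test recovered 91% with 9 false calls, and the microglia test, over 7723 genes, 80.5% with 5. The simulation gave every gene the same dispersion and changed only genes above a floor of expected counts. Libraries differed in it only by total UMIs and the set changes. These shares are therefore not the sensitivity of the tests on the measured counts.

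The free RNA share is the share of neuron-only genes in a glial class (oligodendrocyte-only genes in neurons) over their share in all barcodes of the library. Shares of nuclei were compared after thinning to 1000 UMIs. Alternatives were DESeq2 1.42.0, RLE size factors, no filter, no doublet removal, no upper gene limit, Leiden resolution 1.0, only the groups compared, the replicate block, free RNA subtracted, offsets for gene span and each library left out. In subtypes the alternatives were DESeq2, the block, span offsets, free RNA and each library left out, all chosen after seeing the data.

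The members, the pathway lists, the markers and the rule for named genes were chosen with earlier results of these data known. The rule names all 9 members in every class and subtype, the host genes, the most alike gene of each member, and for each list and each of ageing and AAV-B3GNT3 the 2 called genes with the largest change, with a mean of at least 50 counts, in the class with the most calls. Genes given beside a list's count in excitatory neurons, and Lin7b, Ptprd and Apba1 in OPCs, were chosen after their values were seen. No p-value was adjusted over the members or a list alone. Promoter sequences are from RefSeq, and those of Nrxn2, Nlgn3 and Lrrtm2 were not used here. Counting error and the 3 mice per group limit the precision.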

Additional observations from a re-analysis of the deposited data

Results flagged for a closer look

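Effects that differed between excitatory neurons and oligodendrocytes by edgeR's interaction test, with Benjamini-Hochberg adjustment and the mouse as a block, were found for 4 members with ageing. The change in oligodendrocytes minus that in excitatory neurons was -1.41 for Nrxn3 (adjusted p = 0.00011), -1.24 for Lrrtm4 (0.00011), -0.61 for Nlgn1 (0.0096) and 0.68 for Lrrtm3 (0.012). Oligodendrocyte values of Nrxn3 and Lrrtm4 were lower in all 3 aged AAV-EGFP mice than in all 3 young mice, while those in excitatory neurons overlapped. For AAV-B3GNT3 against AAV-EGFP in aged mice the differences were 1.18 for Nrxn3 (edgeR adjusted p = 0.00085), 1.16 for Lrrtm4 (0.00049) and 0.51 for Nlgn1 (0.040). With offsets for gene span both Nlgn1 differences changed sign, as given above. Subtracting the estimated free RNA left 0 UMIs of Nrxn3 and Lrrtm4 in oligodendrocytes of the aged AAV-EGFP libraries, so it gave no usable test of these genes, and the part of free RNA in their differences was not tested.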

How the results depend on the processing

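Of the calls in classes, Nrxn2 in excitatory neurons was kept in every setting and with each library left out, whereas the 4 glial rises between the aged groups were all lost without aged AAV-B3GNT3 replicate 2. The 11 decreases with ageing were 9 by DESeq2, 5 with no doublets removed, 4 with free RNA subtracted and 6 with span offsets, and the 1 increase was 3 with span offsets. The 4 increases between the aged groups were 8 by DESeq2, 11 with no filter, 1 with no doublets removed and 1 with free RNA subtracted. The 0 decreases there were 4 by DESeq2, 3 with no filter, 1 with span offsets and 1 with the replicate block. The 1 decrease against young mice was 3 with no filter. In subtypes the 6 ageing decreases were 3 with span offsets, where 1 increase appeared, the 1 increase between the aged groups was 2 by DESeq2 and 0 with free RNA subtracted, the 0 decreases were 4 by DESeq2, and the 4 decreases against young were 7 by DESeq2. The class differences of 4 (ageing) and 3 (aged groups) were 1 and 0 with free RNA subtracted, and the 3 were 1 with span offsets. Span offsets turned the ageing change of Nlgn1 in oligodendrocytes to 0.13 and its class differences to 0.066 and -0.11. Free RNA subtraction left 0 UMIs in the aged AAV-EGFP libraries for Nrxn3 and Lrrtm4 in astrocytes, oligodendrocytes and microglia, Lrrtm3 in astrocytes and microglia and Nlgn1 in microglia, so its counts say nothing of these. The other causes were not tested.

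With each library left out in turn, the class counts ran from 0 to 1 (higher) and 9 to 11 (lower) for ageing, 0 to 7 and 0 to 2 between the aged groups, and 0 and 0 to 3 against young. The subtype counts ran from 0 and 3 to 7 for ageing, 0 to 4 and 0 to 4 between the aged groups, and 0 and 2 to 7 against young. The class differences of excitatory neurons and oligodendrocytes ran from 3 to 5, 2 to 3 and 0 to 1, and those of excitatory and inhibitory neurons stayed at 0.

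With the replicate number as a block, ageing gave 11 decreases and 1 increase, the aged groups 5 increases and 1 decrease, and the comparison with young 1 decrease. The labels do not tie a number to a shared litter or batch. Deviations of same-numbered libraries had r from -0.452 to 0.553 over 54 pairs, and those of different numbers from -0.599 to 0.618. In 1 of 18 sets of class and groups, oligodendrocytes of young and aged AAV-EGFP mice, all 3 same-numbered r were over 0.1 (0.109 to 0.267) and the 6 others below 0 (-0.199 to -0.027). The 4 ageing calls of that class were kept with the block. As the other sets did not do so, the numbers were not taken to pair the mice. Between young and aged AAV-EGFP mice, same-numbered r were also all above 0 in astrocytes (0.040 to 0.202) and microglia (0.021 to 0.188). The same held in excitatory neurons (0.00039 to 0.129), while in inhibitory neurons they were all below 0 (-0.372 to -0.175). Whether the numbers pair mice was not settled by these r. Microglia had 138 to 371 nuclei per library.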

Other observations

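Between the aged groups several members had fitted changes on 1 side of 0 in all 14 neuron subtypes tested, without a call by edgeR in any. Lrrtm1 was below 0 in 14 of 14, from -0.85 to -0.21 with a median of -0.53, Nlgn1 in 14 of 14, from -0.48 to -0.22 with a median of -0.38, and Nrxn3 in 14 of 14, from -0.56 to -0.09 with a median of -0.31. Nlgn2, the neuroligin of inhibitory synapses, was above 0 in 14 of 14, from 0.20 to 0.63 with a median of 0.35. The subtypes come from the same mice and are not independent of each other. The share of all genes on 1 side of 0 in every subtype was not counted, so these counts are not shown to be particular to the members. Nrxn3 and Nlgn1 are long genes, whose median change in excitatory neurons was also below 0 in this comparison, as given above. Young replicate 1 and aged AAV-B3GNT3 replicates 1 and 2 had the lowest median UMIs per kept nucleus. In excitatory neurons they also had the lowest Lrrtm1 and the highest Nlgn2 values. The part of depth in these patterns was not tested.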
